A study of Mus musculus with 6 samples.

Results

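The 10 genes described here encode transcription factors of the myeloid lineages: Spi1, which encodes PU.1, the C/EBP family members Cebpa, Cebpb, Cebpd, Cebpe and Cebpg, the interferon regulatory factors Irf4 and Irf8, and the repressors Gfi1 and Gfi1b. They were taken by gene symbol from the 47937 genes of the deposited table, and each symbol was found once. Polyadenylated RNA came from haematopoietic stem cells (HSCs) of wild type C57BL/6 male mice, 8 weeks old, with no treatment. HSCs were sorted from lineage-depleted marrow of femora and tibiae as Kit and Sca-1 positive cells lacking CD34, Flt3 and CD48 and carrying Slam1, and were divided by the surface receptor CD93. There were 3 libraries of CD93-positive cells (CD93pos) and 3 of CD93-negative cells (CD93neg). The bones were pooled. Biological replicates are stated, but not which animals gave which library, so that p-values measure only the spread between these libraries.

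PU.1 is an ETS-family factor needed for both myeloid and B-lymphoid development, and it is already present in stem cells. The C/EBP factors bind DNA as dimers through a basic leucine zipper. C/EBPα acts at the entry to granulocyte and monocyte development, C/EBPε later, at the stage of secondary granules, and C/EBPβ in granulopoiesis on demand. IRF8 directs monocyte and dendritic cell fates, often in complexes with PU.1. GFI1 and GFI1B are zinc finger repressors that recruit the same histone-modifying corepressors and bind sites with an AATC core, and GFI1B is best known from stem cells, erythroid cells and megakaryocytes.

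Irf8 was the 1 tested member whose groups did not overlap: its mean normalized count was 68.6 ± 56.4 (SD, n = 3) in CD93pos and 686 ± 348 (SD, n = 3) in CD93neg, and every CD93neg library lay above every CD93pos library. Of all tested genes, 1.92% lay lower in CD93pos without overlap and 18.3% lay higher. Spi1 was read in all 6 libraries, and Gfi1b was the highest member per base of exon in each CD93pos library. The C/EBP family differed in make-up, with Cebpg holding most of its reads in each CD93pos library and Cebpe all of them in CD93neg replicate 2. These shares of reads are not divided by exon length, and Cebpg is the longest of the family. Cebpa, Irf4 and Gfi1 were at or near 0 in most libraries. No member passed the adjusted threshold of 0.05 in limma's test across all genes.

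The reads assigned to genes ranged from 5794528 to 9509304 in the CD93pos libraries and from 2832653 to 4614396 in the CD93neg libraries. CD93neg replicate 1 stood apart: 71.0% of the 11805 tested genes had no read there, against 2.1% to 26.4% in the other 5 libraries. The fold changes of the tested members and the list medians are therefore given with and without it. Values of single libraries follow the order of replicates 1, 2 and 3. Cd93 itself had 906, 1001 and 550 reads across CD93pos, against 0, 419 and 38 across CD93neg. Scaled to CPM (reads per 1000000 assigned reads) these were 95.3, 172.7 and 76.9 against 0, 90.8 and 12.65, so the groups overlapped. Cd93 was not called by limma (log2 fold change 4.06, adjusted p = 0.541). Kit, shared by both gates, was read in all 6 libraries. Of 12 HSC marker genes, 5 were read in CD93neg replicate 1 and all 12 in each other library. Summed neutrophil markers reached 13370 and 9258 CPM (reads scaled to 1000000 assigned reads) in CD93neg replicates 2 and 3, against 3.11 to 287 in CD93pos and 0 in CD93neg replicate 1. Summed B lineage markers were also highest in those libraries, with 11120 and 34020 CPM in CD93neg replicates 2 and 3, 73.7 to 100.4 in CD93pos and 0.353 in CD93neg replicate 1, and Igll1 and Rag1 were unread in all 6. In CD93neg replicates 2 and 3, Ighm had 4492 and 19280 CPM and Igkc 6255 and 14310 CPM of these sums.

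Genes with a mean normalized count (reads divided by the authors' size factor) of at least 10 were tested, and 7 of the 10 members passed that filter. Cebpa, Irf4 and Gfi1 did not, and have reads and levels with no test. By limma with the Benjamini-Hochberg adjustment, 0 of the 7 tested members were called, beside 0% of all tested genes. At an unadjusted p under 0.05 limma called 0 members, and 1391 genes higher and 45 lower in CD93pos over the whole table. edgeR called 0 genes, and DESeq2 called 705, among them no member. Irf8 was the 1 tested member whose groups did not overlap with CD93pos lower, where 1.92% of tested genes did so. No tested member lay without overlap on the higher side, where 18.3% of tested genes did. Among the tested members, 4 fold changes were above 0 and 3 below, where 79.9% of all tested genes were above 0. The median log2 fold change (CD93pos against CD93neg) was 2.17, beside 2.36 over all tested genes. Without CD93neg replicate 1 these medians were 0.43 and 0.44. Fold changes were fitted on log2(normalized count + 1), a scale on which a single unread library moves a group by many units and the change of low genes is understated.

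**Figure D1:**
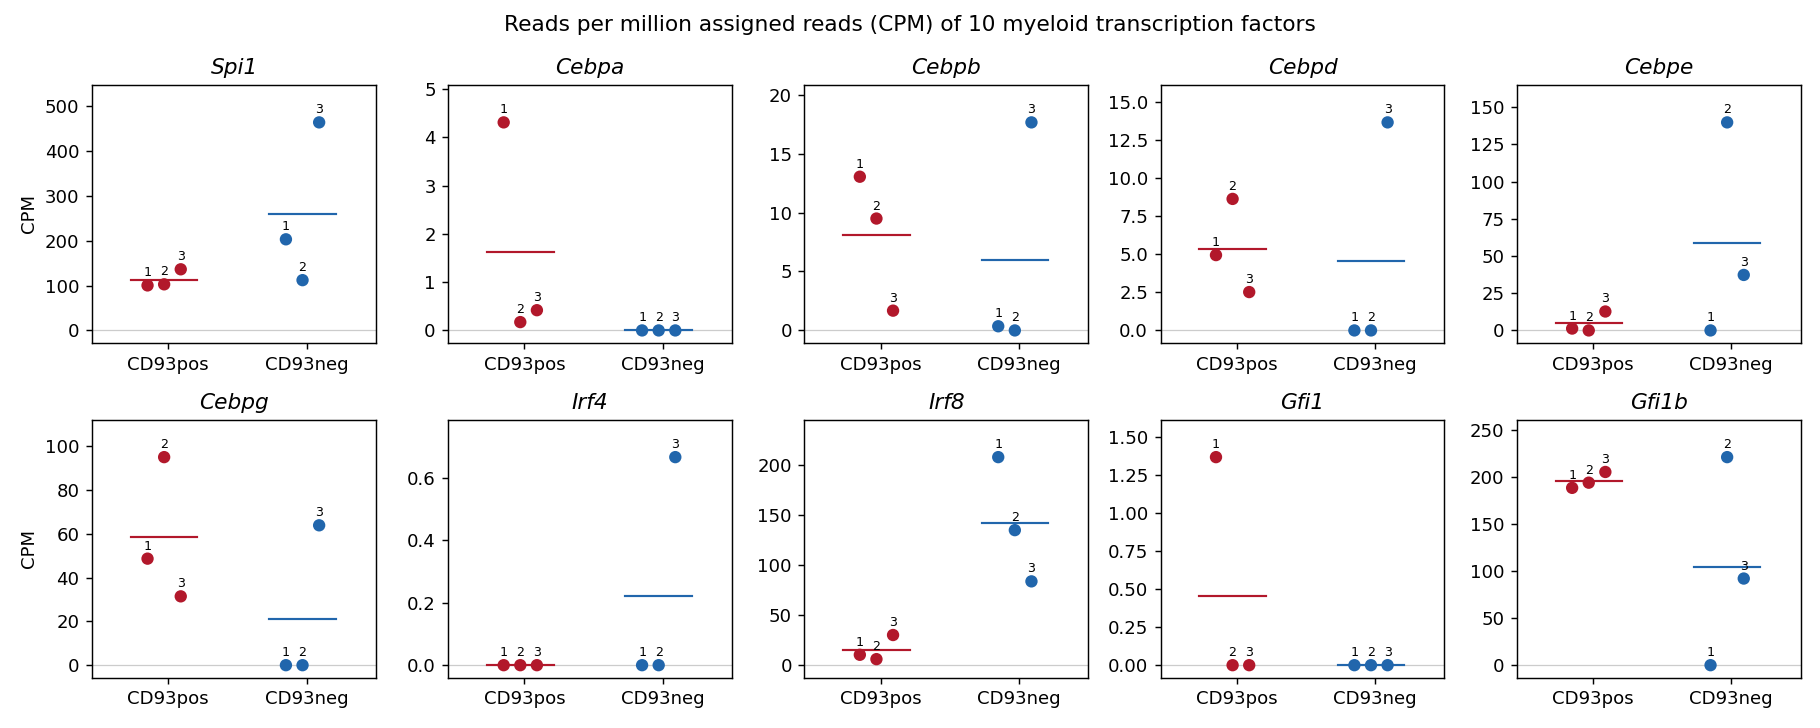
CPM of each of the 10 members in each library, 1 panel per gene with its own linear axis. Points are libraries with their replicate number and the horizontal line is the group mean. The 3 CD93neg points of Irf8, from 83.9 to 208 CPM, lie above the 3 CD93pos points, from 6.04 to 30.2 CPM, while the points of the other tested members overlap between groups.

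Spi1 lies on chromosome 2 at 91082390 to 91115756, plus strand, with 7 exon blocks (GRCm38). It had 100.3, 102.7 and 136.2 CPM across CD93pos, against 203.0, 112.0 and 463.5 CPM across CD93neg. The CD93pos libraries lay close together, and CD93neg replicate 2 fell among them while the other two lay above. Its normalized counts averaged 502 ± 85.9 for CD93pos, against 1237 ± 858 for CD93neg (mean ± SD, 3 libraries each). The log2 fold change was -1.06 with a standard error (SE) of 0.969, and limma gave an adjusted p of 0.624. It was -0.53 without CD93neg replicate 3, the highest Spi1 library, -1.60 without CD93neg replicate 2 and -1.055 without CD93neg replicate 1. CD93neg replicate 3 also had the highest B lineage sum (34020 CPM) and the highest monocyte and macrophage sum (738 CPM), cell types in which PU.1 is known to act, and their part in the Spi1 values was not tested. Ighm and Igkc held 19280 and 14310 CPM of that B lineage sum, and F13a1 held 382.9 CPM of the monocyte and macrophage sum. Other markers of these lists went the other way. Vpreb1, C1qb and Vcam1 were unread there and read in every CD93pos library. Adgre1 and C1qa were unread there and read in CD93pos replicates 1 and 3. In samples of many cells, fewer cells that express a gene and less RNA per cell cannot be told apart, here and for each member below.

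The C/EBP genes differed among themselves in which libraries held their reads. Cebpa, the family member that opens granulocyte and monocyte development, is a single-exon gene on chromosome 7 (35119293 to 35121928, plus strand). It had 41, 1 and 3 reads across CD93pos, against 0 in each CD93neg library. Nearly all of its signal was thus in a single library. Summed over each group, Cebpa was at least 6.98-fold higher in CD93pos, taking 3 reads over the CD93neg libraries as the limit that a count of 0 allows, and without CD93pos replicate 1 at least 1.08-fold higher. Such limits cover counting error only.

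Cebpb and Cebpd, both single-exon genes, are induced by inflammatory signals in myeloid cells. Cebpb (chromosome 2, 167688915 to 167690418, plus strand) had 124, 55 and 12 reads across CD93pos, against 1, 0 and 53 reads across CD93neg, where its level reached 17.6 CPM. Cebpd (chromosome 16, 15887286 to 15891031, plus strand) had 4.94, 8.63 and 2.52 CPM across CD93pos, against 0, 0 and 13.6 CPM across CD93neg. For both genes CD93neg replicate 3 was the highest of all 6 libraries and the other CD93neg libraries were the lowest, so the groups overlapped. The log2 fold change of Cebpb was 2.17 (SE 1.95, limma adjusted p = 0.623), and it was -1.87 under quantile normalization. That of Cebpd was 2.47 (SE 1.91, limma adjusted p = 0.609), and -1.59 under quantile normalization. Without CD93neg replicate 1, 2 or 3 the log2 fold change was 1.60, 0.86 or 4.05 for Cebpb and 1.46, 1.46 or 4.48 for Cebpd, and limma called neither. Cebpb shares 312 exonic bases with Tmem189 and Cebpd 562 with Spidr, both on the opposite strand. Cebpa shares 51 with Gm45091 and Gfi1 a short stretch with A430072P03Rik, also on opposite strands, and Cebpg 73 with Gm44836 on the same strand. Whether the counting used strand is not stated, so reads of such partners cannot be told apart.

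Cebpe, the factor of secondary granule genes, lies on chromosome 14 (54710360 to 54712174, minus strand) with 2 exon blocks. It had 12, 0 and 91 reads across CD93pos, against 0, 645 and 112 reads across CD93neg, where its level reached 139.8 CPM. CD93neg replicates 2 and 3 were the highest libraries, and CD93neg replicate 1 was unread like CD93pos replicate 2. Its normalized counts averaged 20.5 ± 30.9 for CD93pos, against 263 ± 316 for CD93neg (mean ± SD, 3 libraries each). The fitted log2 difference was -2.73 (SE 2.66), at an adjusted p of 0.63 by limma. The value depended on single libraries. Without CD93neg replicate 1 the Cebpe groups did not overlap and the log2 fold change was -5.52 (SE 1.99, limma adjusted p = 0.254). It was -0.89 without CD93neg replicate 2, -1.79 without CD93neg replicate 3, -1.31 without CD93pos replicate 2 and -4.23 without CD93pos replicate 3. Among the CD93neg libraries the summed neutrophil markers had the same order as Cebpe, with 0, 13370 and 9258 CPM. Among the CD93pos libraries they did not: they had 287 CPM in replicate 1, with 12 Cebpe reads, and 18.9 CPM in replicate 3, with 91 Cebpe reads. Ly6g, the neutrophil surface marker, had 200 reads in CD93neg replicate 2, 55 in CD93neg replicate 3 and 0 in the other 4 libraries. The part of neutrophil RNA in the Cebpe values was not tested.

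Cebpg encodes a short C/EBP protein that pairs with other C/EBP and ATF factors and lacks a strong activation domain. The gene lies on chromosome 7 (35046422 to 35056573, minus strand) with 3 exon blocks. Its upstream sequence is shown because its reads were present in every CD93pos library and missing from a pair of CD93neg libraries. These are the 250 bases before the RefSeq start (GRCm38.p6, chr7:35056567-35056816, minus strand), 5′ to 3′, with matches to the CCAAT box, here on the reverse strand, in capitals:

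Cebpg: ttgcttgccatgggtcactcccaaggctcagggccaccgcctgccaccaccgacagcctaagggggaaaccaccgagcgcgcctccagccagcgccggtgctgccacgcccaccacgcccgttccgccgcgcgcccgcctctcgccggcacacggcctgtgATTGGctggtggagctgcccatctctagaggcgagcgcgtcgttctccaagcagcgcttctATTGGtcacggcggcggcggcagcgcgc

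The sequence has 2 CCAAT matches, first bases 89 and 28 bases upstream of the start, and 10.1% of 32851 RefSeq promoter windows of this length hold at least as many on either strand. Cebpg had 48.7, 95.1 and 31.5 CPM across CD93pos, against 0, 0 and 63.9 CPM across CD93neg. The CD93neg library that was read lay within the CD93pos range. Its normalized counts averaged 262 ± 155 for CD93pos, against 100.03 ± 173 for CD93neg (mean ± SD, 3 libraries each). The fitted log2 difference was 5.13 (SE 2.48), at an adjusted p of 0.449 by limma. Without CD93neg replicate 3 it was 7.88 (SE 0.963, limma adjusted p = 0.00762), and Cebpg was then the 1 member called, where 16.2% of the 11529 genes tested in that fit were called higher in CD93pos. Without CD93neg replicate 1 it was 3.76, with a limma adjusted p of 0.461.

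Taken as a family, the 5 C/EBP genes had 687, 657 and 349 reads across CD93pos, against 1, 645 and 398 across CD93neg. Cebpg held 67.4% of these reads in CD93pos replicate 1 (exact 95% binomial interval 63.8 to 70.9), 83.9% in replicate 2 (80.8 to 86.6) and 64.5% in replicate 3 (59.2 to 69.5). In CD93neg replicate 2 Cebpg had 0%, which allows up to 0.57% by the same exact interval, and Cebpe 100% of the family's reads. In CD93neg replicate 3 Cebpg held 48.2% (43.2 to 53.3) and Cebpe 28.1% (23.8 to 32.8), close to the 26.1% (21.6 to 31.0) that Cebpe held in CD93pos replicate 3. Both of these CD93neg shares of Cebpg lay below the lowest CD93pos share, and they also differed from each other. CD93neg replicate 1, with its single Cebpb read, gives no share. The intervals cover counting error only, since an amplified library can hold several reads of 1 molecule. Shares of reads also follow exon length, which is 5621 bases for Cebpg, 1504 for Cebpb and 1241 for Cebpe. Per kilobase of exon, Cebpg led in CD93pos replicate 2 (16.9 CPM). It was level with Cebpb in CD93pos replicate 1 (8.66 and 8.67) and below Cebpe in CD93pos replicate 3 (5.6 against 10.25). In CD93neg replicate 3 Cebpe had 30.05, Cebpb 11.73 and Cebpg 11.37.

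**Figure D2:**
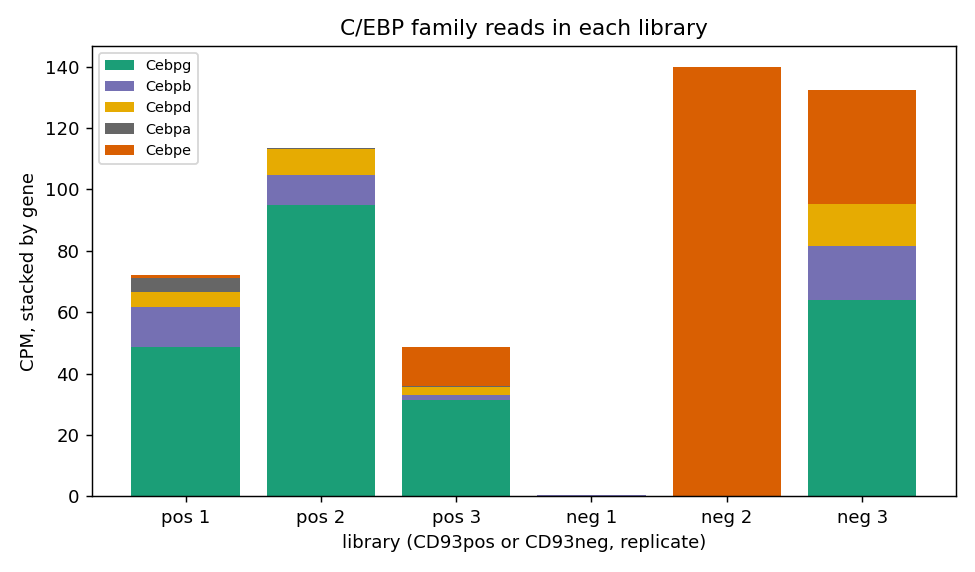
CPM of the 5 C/EBP genes, not divided by exon length, stacked for each library. Cebpg is the largest segment in the 3 CD93pos libraries and in CD93neg replicate 3, Cebpe is the whole bar of CD93neg replicate 2 (139.8 CPM), and CD93neg replicate 1 is at 0.353 CPM.

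Irf8 lies on chromosome 8 (120736358 to 120756694, plus strand) with 11 exon blocks. Its upstream sequence is shown because Irf8 was the tested member whose groups did not overlap. These are the 250 bases before the RefSeq start (GRCm38.p6, chr8:120736108-120736357, plus strand), with matches to TTCNNNGAA, the palindrome bound by STAT factors downstream of interferon, in capitals:

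Irf8: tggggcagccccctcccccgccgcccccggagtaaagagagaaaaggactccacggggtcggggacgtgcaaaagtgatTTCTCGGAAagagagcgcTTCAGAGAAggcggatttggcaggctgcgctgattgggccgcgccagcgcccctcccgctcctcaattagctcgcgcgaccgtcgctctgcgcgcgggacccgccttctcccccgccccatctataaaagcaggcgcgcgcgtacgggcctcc

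The 2 matches start 171 and 153 bases upstream, and 0.317% of the 32851 windows hold at least as many. A match is a description of the letters, and binding was not measured here.

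Irf8 had 99, 35 and 216 reads across CD93pos, which is 10.4, 6.04 and 30.2 CPM. Across CD93neg it had 590, 624 and 252 reads, which is 208, 135 and 83.9 CPM. The highest CD93pos library lay below the lowest CD93neg library, and the shallowest library, CD93neg replicate 1, had the highest level. The mean normalized count in CD93neg was 10.0 times that in CD93pos. The log2 fold change was -3.49 (SE 1.75), and limma's unadjusted p of 0.0815 gave an adjusted p of 0.457. Under the alternatives tried the log2 fold change of Irf8 lay between -4.45 and -2.98, with adjusted p-values from 0.176 to 0.825, so its direction was kept and it was not called. Without CD93neg replicate 1, whose Irf8 level was highest, it was -3.11 (SE 0.902, limma adjusted p = 0.176). In that fit Irf8 and Cebpe were the 2 members lower in CD93pos at an unadjusted p under 0.05, where 4.31% of 12008 genes were, and the same 2 members did not overlap and lay lower, where 13.8% of the 11805 genes did.

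Markers of cell types in which IRF8 is known to act were read beside it. In CD93neg replicate 1, where Irf8 was highest, neutrophil and monocyte and macrophage markers had 0 CPM and B lineage markers 0.353 CPM. Of 11 dendritic cell markers 2 were read there, Bst2 with 323 reads and Tcf4 with 6941, giving a sum of 2564 CPM against 257 to 380 in CD93pos and 440 and 635 in CD93neg replicates 2 and 3. Both genes were read in all 6 libraries. Tcf4 had 2450 CPM in CD93neg replicate 1 and 165.8 to 367.3 elsewhere. Bst2 had 114 CPM there, against 137.4 and 156.8 in CD93neg replicates 2 and 3 and 65.5 to 82.1 in CD93pos. Siglech, a marker of plasmacytoid dendritic cells, was unread except for 113 reads in CD93neg replicate 3, and Cd209a, Itgax and Xcr1 were unread in every library. Monocyte and macrophage markers summed to 86.7, 256 and 157 CPM across CD93pos, against 21.4 and 738 in CD93neg replicates 2 and 3, and Cx3cr1 was unread in all 6. With 71.0% of tested genes unread in CD93neg replicate 1, other markers could also be missed there. Summed HSC markers were highest in that library too, with 5707 CPM against 2497 to 4911 in the other libraries. The part of RNA from dendritic, B lineage or monocyte cells in the Irf8 values was not tested in any library.

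**Figure D3:**
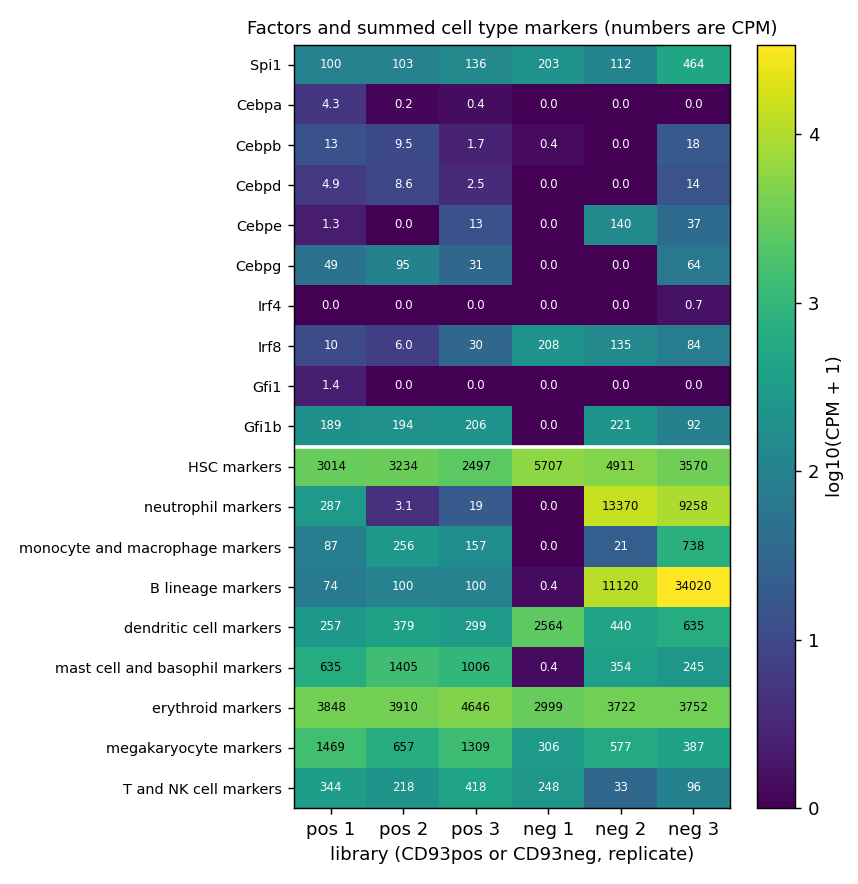
Colour shows log10(CPM + 1) of the 10 factors and of 9 summed marker lists in each library, and the printed numbers are CPM. Irf8 is highest in CD93neg replicate 1, where the dendritic cell sum (2564 CPM) and the HSC sum (5707 CPM) are also highest and the neutrophil and monocyte sums are 0. Of that dendritic cell sum 2450 CPM is Tcf4, a gene read in every library. Cebpe is highest in CD93neg replicate 2, where the neutrophil sum is 13370 CPM.

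Irf4, the close relative of Irf8 with roles in B cells, plasma cells and some dendritic cells, lies on chromosome 13 (30749226 to 30766976, plus strand). It had 0 reads in 5 libraries and 2 reads, 0.666 CPM, in CD93neg replicate 3. The limit that a count of 0 allows (3 reads) ranged from 0.315 CPM in CD93pos replicate 1 to 1.06 CPM in CD93neg replicate 1, so Irf4 was not detectable above that limit in any library.

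Gfi1b lies on chromosome 2 (28609450 to 28621982, minus strand) with 7 exon blocks. Its upstream sequence is shown because it was the highest member per base of exon in CD93pos and because both GFI1 proteins bind AATC. These are the 250 bases before the RefSeq start (GRCm38.p6, chr2:28621983-28622232, minus strand), with matches to AATC on either strand and to the GATA factor motif GATAA in capitals:

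Gfi1b: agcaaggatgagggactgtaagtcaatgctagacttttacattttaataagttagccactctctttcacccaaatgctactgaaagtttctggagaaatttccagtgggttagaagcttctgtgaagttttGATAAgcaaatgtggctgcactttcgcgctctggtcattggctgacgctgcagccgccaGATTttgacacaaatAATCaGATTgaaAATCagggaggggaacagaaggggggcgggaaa

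The 4 AATC matches start 60, 45, 40 and 33 bases upstream of the start, and 7.04% of the 32851 windows hold at least as many. The single GATAA match starts 119 bases upstream, and 22.6% of windows hold at least 1. Over the 7 members with a RefSeq promoter entry, the PU.1 motif GAGGAA was matched once, in Irf4 (23.3% of all windows), and the C/EBP motif TTGCNNAA once, in Gfi1 (9.56% of all windows). Both strands were searched for each motif.

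Gfi1b had 188.8, 194.3 and 205.7 CPM across CD93pos, against 0, 221.5 and 92.2 CPM across CD93neg. The CD93pos libraries were nearly level, while the CD93neg libraries ran from unread to the highest value of all. Its normalized counts averaged 873 ± 45.6 for CD93pos, against 468 ± 487 for CD93neg (mean ± SD, 3 libraries each). The log2 fold change was 3.54 (SE 2.68, limma adjusted p = 0.601), and without CD93neg replicate 1 it was 0.43 (SE 0.42, limma adjusted p = 0.603). Without CD93neg replicate 2 it was 5.39 (limma adjusted p = 0.434). Erythroid markers, a lineage in which GFI1B acts, summed to 3848, 3910 and 4646 CPM in the CD93pos libraries and to 2999, 3722 and 3752 in the CD93neg libraries. Megakaryocyte markers summed to 1469, 657 and 1309 CPM in CD93pos and to 306, 577 and 387 in CD93neg, with Gp6 unread in all 6. Both sums were lower in every CD93neg library than in any CD93pos library, and their part in the Gfi1b values was not tested. Most of each erythroid sum was Car2, with 2974, 3378 and 3534 CPM in CD93pos and 2771, 3586 and 3587 in CD93neg, where the groups overlapped. Only 2 of the 12 erythroid markers were read in CD93neg replicate 1. Of the 10 megakaryocyte markers 2 were read there, and Gp9 held 298.0 CPM of that sum, against 49.0 to 79.1 in CD93pos. Gp1ba (91.67 CPM) and Treml1 (76.07 CPM) were highest in CD93neg replicate 2, and Selp (53.94 CPM) in CD93neg replicate 3. Itga2b held 853.5, 343.9 and 624.9 CPM of the CD93pos sums. Of the 9 tested megakaryocyte markers 4 lay higher in CD93pos without overlap, where 18.3% of tested genes did. Gfi1, the paralogue best known in granulocyte and lymphoid progenitors, lies on chromosome 5 (107716657 to 107726036, minus strand) and had 13 reads in CD93pos replicate 1 and 0 in the other 5 libraries. With that library in, Gfi1 was at least 2.02-fold higher over the CD93pos group, and without it no read was left.

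Levels were compared between genes as RPKM, the CPM divided by the exon length in kilobases. In CD93pos the order began with Gfi1b at 107 ± 4.71, then Spi1 at 41.9 ± 7.44 and Cebpg at 10.4 ± 5.86 RPKM (SD, n = 3), and the ranges of these 3 did not overlap. Below them came Cebpb, Cebpe, Irf8, Cebpd, Cebpa, Gfi1 and Irf4, from 5.37 RPKM down to 0, and each neighbouring pair among these overlapped, as did Cebpg and Cebpb. In CD93neg the order began with Spi1 at 96.3 ± 67.7, Gfi1b at 57.1 ± 60.8, Cebpe at 47.6 ± 58.3 and Irf8 at 20.2 ± 8.86 RPKM (SD, n = 3). Each of these 4 overlapped the next, and the lowest Irf8 value, 11.9 RPKM, lay just above the highest of Cebpb, 11.7 RPKM. By group means only, Irf8 stood behind Cebpe and Cebpb in CD93pos, at 2.2 ± 1.83 RPKM, and ahead of Cebpb in CD93neg. Single CD93pos libraries did not keep that order. Irf8 was above Cebpe in replicates 1 (1.476 against 1.017 RPKM) and 2 (0.856 against 0), and below it in replicate 3 (4.28 against 10.25). It was below Cebpb in replicates 1 and 2 and above it in replicate 3 (4.28 against 1.115).

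Within a library, ratios of levels per base do not depend on the scaling. The Gfi1b level was 2.77, 2.79 and 2.22 times the Spi1 level across CD93pos, against 0, 2.91 and 0.293 times across CD93neg. The Irf8 level was 0.0396, 0.0225 and 0.0847 times the Spi1 level in the CD93pos libraries and 0.392, 0.461 and 0.0692 times in the CD93neg libraries. Relative to Spi1, CD93neg replicate 3 therefore fell inside the CD93pos range of Irf8, and the groups overlapped.

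**Figure D4:**
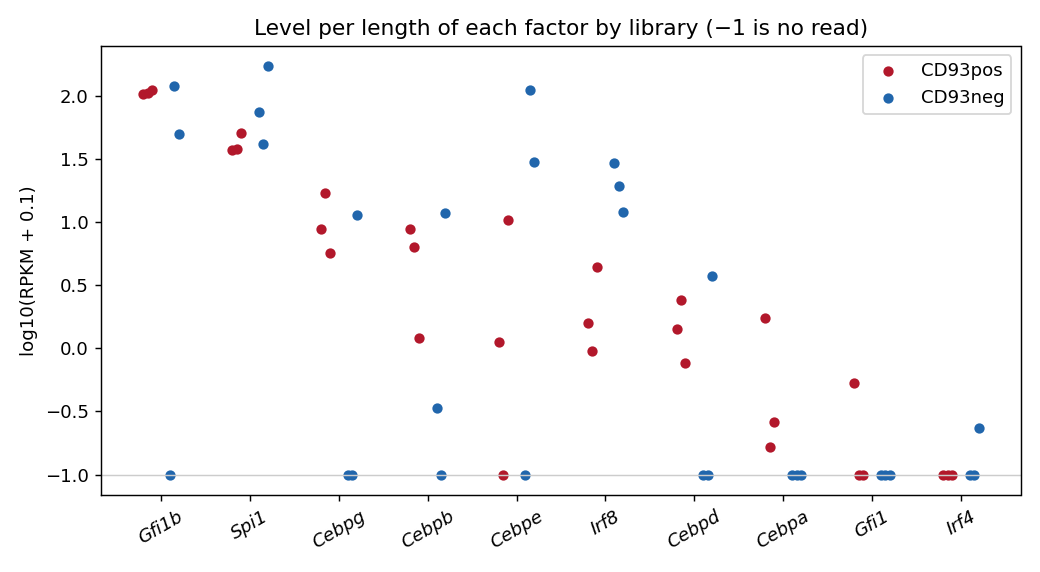
Level of each member per base of exon as log10(RPKM + 0.1), genes ordered by their CD93pos mean; points are libraries and a value of -1 means no read. Gfi1b, Spi1 and Cebpg have the highest CD93pos means, and Irf8 is the tested gene whose CD93neg points (11.9 to 29.5 RPKM) all lie above its CD93pos points (0.856 to 4.28 RPKM).

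Genes that act with or below these factors were read in 6 lists. limma called 0 genes in either direction in each of them. Beside each list below, 79.9% of all tested genes had a fold change above 0, with a median log2 fold change of 2.36. Without CD93neg replicate 1 these were 60.2% and 0.44. Of the 17 granule genes, all tested, 5 had a fold change above 0 and 12 below, with a median log2 fold change of -4.26, and of -8.12 without CD93neg replicate 1. Their summed reads were 556 to 1135 CPM across CD93pos, against 254, 17490 and 13480 CPM across CD93neg, so the libraries with the most granule RNA were those with the most neutrophil marker RNA. Mmp8, Mmp9, Ltf, Camp, Ngp, Cd177, Fcnb, S100a8 and S100a9 are in both of those lists. The 5 granule genes with a fold change above 0 were Mpo, Elane, Ctsg, Ms4a3 and Lyz2. Of these, Mpo, Elane, Ctsg and Ms4a3 were unread in CD93neg replicates 1 and 3 and read in CD93neg replicate 2. Prtn3, a primary granule protease, had 983, 419 and 745 reads across CD93pos, against 719, 2505 and 730 across CD93neg, without overlap after scaling (log2 fold change -1.9, SE 0.841, limma adjusted p = 0.422). Mmp9, a gelatinase, and Fcnb, a ficolin, had 6 and 9 reads in CD93pos replicate 1 and none in the other CD93pos libraries, against 701 and 862 in CD93neg replicate 2 and 568 and 237 in replicate 3. DESeq2 called both, with adjusted p-values of 0.00943 and 0.0243.

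Of 16 receptor and surface genes known as PU.1 and C/EBP targets, 15 were tested, 10 with a fold change above 0 and 5 below, and a median log2 fold change of 2.07 that was -0.50 without CD93neg replicate 1. Btk, a kinase of the B cell and myeloid lineages regulated by PU.1, had 2025, 1120 and 1967 reads across CD93pos, against 0, 143 and 326 across CD93neg. These groups did not overlap (log2 fold change 4.6, limma adjusted p = 0.489), and without CD93neg replicate 1, where Btk was unread, the log2 fold change was 1.92 (limma adjusted p = 0.209). Csf2rb2, a cytokine receptor subunit, and Tlr4, the endotoxin receptor, were unread in all CD93neg libraries and in CD93pos replicate 2. Tlr4 had 148 and 27 reads in CD93pos replicates 1 and 3, and Csf2rb2 had 70 and 71. Their limma adjusted p-values were 0.474 for Tlr4 and 0.463 for Csf2rb2, and without CD93pos replicate 2 these were 0.0376 and 0.0269, in a fit that called 707 genes.

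The C/EBP partner and modifier list had 15 of its 16 symbols in the table and 13 tested genes, 12 with a fold change above 0 and 1 below (median log2 fold change 2.03, and 1.62 without CD93neg replicate 1). Over all tested genes 79.9% were above 0 and the median was 2.36. Fos, whose protein pairs with JUN in AP-1, had 1097, 878 and 1093 reads across CD93pos, against 1, 0 and 0 across CD93neg. Its limma adjusted p was 0.0558, a value that tied with that of other genes, such as Klf1, as the smallest in the fit. limma called Fos at a pseudocount of 0.5 (adjusted p = 0.0495), with TMM scaling (0.0482), without CD93pos replicate 2 (0.0337) and without CD93neg replicate 3 (0.0102), and so did DESeq2 (adjusted p = 0.000604). Those fits called 206, 296, 707, 1873 and 705 genes, in that order. Trib1 and Trib2 encode pseudokinases that bring C/EBPα to the ligase COP1 for degradation. Trib1 had 33, 204 and 134 reads across CD93pos, against 0, 1 and 1 across CD93neg (limma adjusted p = 0.137, DESeq2 adjusted p = 0.0302). Trib2 had 359, 482 and 459 reads against 0, 0 and 40 (limma adjusted p = 0.236). Without CD93neg replicate 3 limma called Trib1 and Trib2, with adjusted p-values of 0.0436 and 0.00762, where it called 16.2% of 11529 genes higher in CD93pos.

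In the list of PU.1 partners, antagonists and ETS relatives 17 of 19 genes were tested, 13 with a fold change above 0 and 4 below (median log2 fold change 2.46, and 0.64 without CD93neg replicate 1). Ets1, an ETS relative, had 423, 404 and 143 reads across CD93pos, against 1, 4 and 14 across CD93neg (limma adjusted p = 0.26, and 0.0249 without CD93neg replicate 3). The latter fit called 16.2% of 11529 genes higher in CD93pos. Gata1, the erythroid factor that opposes PU.1, had 2036, 358 and 1939 reads across CD93pos, against 0, 560 and 0 across CD93neg, where the read library overlapped the CD93pos range (limma adjusted p = 0.411). Spic, a close relative of Spi1, had 210, 2 and 74 reads against 0, 0 and 1 (limma adjusted p = 0.396, and 0.0463 without CD93pos replicate 2). The fit without CD93pos replicate 2 called 707 genes.

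All 7 other interferon regulatory factors were tested, 6 with a fold change above 0 and 1 below, and their median log2 fold change of 1.73 was -0.99 without CD93neg replicate 1. Irf2, which represses interferon targets, had 1725, 1925 and 1233 reads across CD93pos, against 2316, 1021 and 986 across CD93neg (log2 fold change -0.93, limma adjusted p = 0.609). Irf3 and Irf9, which act in the induction of and response to type I interferon, were unread in CD93neg replicate 1, and their log2 fold changes of 2.29 and 2.78 were -1.03 and -0.45 without it. Irf3 was below 0 under quantile normalization, edgeR and DESeq2 too. Of 13 GFI1 corepressor genes 11 were tested, 9 with a fold change above 0 and 2 below (median log2 fold change 2.55, and 0.24 without CD93neg replicate 1). Rcor1, the CoREST subunit that joins the demethylase to GFI1 proteins, had 419, 432 and 318 reads across CD93pos, against 0, 290 and 0 across CD93neg (limma adjusted p = 0.444). Hdac2, a deacetylase of that complex, had 1546, 565 and 576 reads across CD93pos, against 0, 29 and 171 across CD93neg (limma adjusted p = 0.47).

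The genes whose log2(normalized count + 1) followed a member most closely over the 6 libraries were read as a description, with Pearson's r. For Irf8 these were Eif1, a translation initiation factor, and Cst3, which encodes cystatin C, each with r = 0.968 among 10731 candidates. Cst3 had 1738, 810 and 1733 reads across CD93pos, against 1725, 1715 and 1006 across CD93neg. For Spi1 they were the ribosomal protein gene Rpl12 (0.987) and Cacybp (0.957), and for Cebpa Slc19a2 (0.993) and Zswim3 (0.984). For Gfi1b, Zfp422 and Chmp7 had r = 1.0, and 3791 candidates reached 0.9. Zfp422 and Chmp7 had no read in CD93neg replicate 1, where Gfi1b was also unread. The libraries differ in depth and in unread genes, which all candidates share.

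The authors' deposited table, made with DESeq2, gave Irf8 a log2 fold change of -3.32 (SE 1.59), an unadjusted p of 0.037 and an adjusted p of 0.27. For Cebpe the authors' deposited table gave -3.68 (SE 2.37, adjusted p = 0.572), and for Spi1 -1.3 (SE 1.55, adjusted p = 1.0). For Cebpg and Gfi1b the authors' deposited table gave 1.39 (SE 2.35) and 0.90 (SE 2.02). It called 0 members at an adjusted p under 0.05, where it called 5.97% of 11813 genes. The authors' table and the fits above rest on the same 6 libraries, so the authors' table is not independent support. In each, Irf8 was lower in CD93pos in level and short of the adjusted threshold.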

How the data were processed

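The data are 6 RNA sequencing libraries, 3 CD93pos and 3 CD93neg, assigned to groups by title. Low-input libraries were read in pairs, per the labels' protocols. The submitters' processing notes name STAR, featureCounts of Subread 1.5.0-p1, DESeq2 1.26 and the builds GRCm38 and mm10. No annotation release or strand setting is given in the sources used here. The authors deposited a signal table, in which the counts of 47937 genes had been divided by library size factors, and a table of log2 fold changes, Wald scores and p-values. Reads were recovered from the signal as whole numbers for 100% of the values, within 0.001 reads, and gave CPM and RPKM. RPKM used the union of exons of GENCODE M21, in which 47224 IDs were found.

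The main test was limma 3.58.1 (trended eBayes) on log2(normalized count + 1), two-sided, over the 11805 genes whose normalized counts averaged 10 or more. P-values were adjusted after Benjamini and Hochberg, with a threshold of 0.05. Alternatives were the pseudocount, filter, scaling, edgeR 4.0.16, DESeq2 1.42.0, a replicate block and each library left out. Software was R 4.3.3 and Python 3.11.15 with numpy 2.4.6, pandas 2.3.3 and, for plots, matplotlib 3.10.9. The code of the fit was run on simulated counts with a fixed spread and no mostly unread library. That run cannot show how the fit behaves with a library like CD93neg replicate 1.

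The members and lists were chosen with earlier results of these data known. Besides the 10 members, the 3 tested genes of each pathway list with the smallest unadjusted p, the 2 genes most like each of Spi1, Cebpa, Irf8 and Gfi1b, unread markers, Cd93 and Kit were named, except 1 list gene that is not reported here. Bst2, Tcf4, Siglech, Ly6g, Klf1, Car2, Mpo, Elane, Ctsg, Ms4a3 and Lyz2 were named after their values were seen. So were Ighm, Igkc, Vpreb1, F13a1, Adgre1, C1qa, C1qb, Vcam1, Gp9, Gp1ba, Treml1, Selp and Itga2b. The likeness ranking left out predicted, mitochondrial and unnamed genes and the segments of antigen receptors. A fold against an unread group uses a floor of 3 reads over that group. Promoter sequences came from RefSeq (GRCm38.p6), with 7 of 10 members matched.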

Additional observations from a re-analysis of the deposited data

How the results depend on the processing

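Depth and unread genes set the limits: 71.0% of tested genes were unread in CD93neg replicate 1. The number of genes called, 0 by limma, was 206 with a pseudocount of 0.5, 296 with TMM scaling, 705 by DESeq2 and 24 with a replicate block, and it ranged from 0 to 1873 with 1 library left out: 707 without CD93pos replicate 2, 1 without CD93neg replicate 1 and 1873 without CD93neg replicate 3. Members called ranged from 0 to 1, Cebpg without CD93neg replicate 3, and 0 with the block. Tested members without overlap numbered 2 in place of 1 without CD93neg replicate 1, an alternative chosen after seeing the data. Both lay lower in CD93pos, as did 13.8% of the 11805 tested genes in that setting, against 1.92% with all libraries. Same-numbered libraries had correlations of deviations of 0.0372, 0.0191 and 0.0605, so the numbers were not taken as pairs, although 6 of 6 libraries correlated best with their own number. The block changed no member's call.

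Of 110 alternative values of the members' fold changes, 107 kept direction and side of the threshold. Quantile normalization moved the median log2 fold change of all tested genes from 2.36 to 0.022 and the share above 0 from 79.9% to 50.5%. The median was 2.59 with TMM scaling and 2.49 scaled to assigned reads. Under quantile normalization the log2 fold change was -1.87 for Cebpb, -1.59 for Cebpd, -0.26 for Csf2rb2, -0.32 for Tlr4, -0.065 for Irf3, -0.041 for Zswim3 and 0.10 for Cacybp. It was 0.042 for Cacybp with TMM scaling, and for Irf3 -0.29 by edgeR and -0.41 by DESeq2. With 1 library left out, Irf3 ranged from -1.03 to 4.17 and Irf9 from -0.45 to 4.44, both lowest without CD93neg replicate 1. The cause was not tested.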
